A study of Mus musculus with 16 samples.

Results

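Primary microcephaly is a recessive disorder of small brain size at birth, and most of its known genes act at the centrosome, the mitotic spindle or the cleavage furrow. The 10 genes described here are mouse counterparts of human primary microcephaly genes other than *Knl1*, the gene deleted in these mice. They are *Cenpj*, *Stil*, *Cep152*, *Cep135*, *Cdk5rap2*, *Wdr62*, *Aspm*, *Cit*, *Mcph1* and *Phc1*. The genes were chosen by name from what is known of the human disorder, though with earlier results of these data known. All 10 were found among the 51912 listed genes, of which 27394 had at least 1 count in some library. None of the 10 differed between genotypes at an edgeR FDR below 0.05, against 0.0501% to 0.160% of all listed genes in the genotype comparisons. In a test chosen after the values had been seen, *Aspm*, *Stil* and *Cit* were higher in the mice of one litter than in those of another. These were 3 of the 10, against 1.23% of all listed genes called in either direction. Of the 3, only *Aspm* was still called without ctrl mouse 6, ctrl mouse S3 or cKO mouse S2.

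Neural progenitor cells (NPCs) line the ventricle of the embryonic cortex and divide there many times before they give rise to neurons. A new centriole is built beside each old one once per cell cycle. CEP152 helps to recruit the kinase that starts this step, STIL takes part in forming the first scaffold, and CENPJ (also called CPAP) and CEP135 are needed for the new centriole to grow and hold its shape. ASPM, WDR62 and CDK5RAP2 sit at spindle poles or in the material around the centrioles, where they help to hold microtubules in place. CIT (citron kinase) acts in cytokinesis, MCPH1 (microcephalin) in chromosome condensation and the DNA damage response, and PHC1 is a member of a Polycomb complex that silences genes. KNL1 itself is a kinetochore protein, so the genes share a disease and the dividing NPC rather than a single complex.

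Libraries were made from the E15.5 cerebral cortex of 15 mice by Click-seq, in which random primers copy rRNA-depleted RNA and each cDNA carries a unique molecular identifier (UMI). The 4 cKO mice (5, 7, S2 and F3) had a conditional KO of *Knl1*, which the labels also call *Casc5*, and the 4 dKO mice (T2, T8, F1 and F7) one of both *Knl1* and *Trp53*, with *hGFAP-Cre* as the driver in each case. Of the 7 ctrl mice, 5 were *Knl1* wild type (2, 6, S1, S3 and T3) and 2 were heterozygous (T4 and T5), and their Cre and *Trp53* alleles are not given by the labels. Each group held both sexes. In this line Cre is active in cortical NPCs, so interneurons and vessels that enter the cortex from elsewhere keep both genes. Mouse S2 had 2 libraries, which were added together. The mice came from 4 litters. Litter 1 held ctrl mice 2 and 6 and cKO mice 5 and 7, and litter 2 held ctrl mice S1 and S3 and cKO mouse S2. Litter 3 held ctrl mice T3, T4 and T5 and dKO mice T2 and T8, and litter 4 held cKO mouse F3 and dKO mice F1 and F7 with no ctrl mouse. Batch 1 was litters 1 and 2 without S1, which was batch 2 on its own, and litters 3 and 4 were batch 3.

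Totals were 399832 to 3266227 counts in ctrl, 4178461 to 8800987 in cKO and 552186 to 5396803 in dKO, so that every cKO mouse was sequenced more deeply than every ctrl mouse. The 10 genes together had 243 to 6611 counts in a mouse. Before TMM scaling, 3 counts were 7.50 CPM (counts scaled to the library's total) in T3, the mouse with the lowest total, and 0.341 CPM in S2, the highest. These limits cover counting error only. Markers of cortical excitatory neurons summed to between 6218 and 8956 CPM in each mouse, although 1 of the 12, *Tubb3*, was listed at 0 in all mice, as was *Sox2* among 10 apical progenitor genes. *Knl1* was at 48.7 to 80.0 CPM in ctrl, 50 to 80.4 in cKO and 33.4 to 58.2 in dKO, and *Trp53* at 15.6 to 47.0, 24.0 to 33.3 and 19.8 to 32.3 CPM. Neither differed between genotypes at an FDR below 0.05. These levels are sums over all exons and over cells with and without Cre, so they do not show whether the floxed part was lost.

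All 10 genes had at least 1 count in every mouse, and all were at or above the floor of 3 counts other than *Wdr62* in T3, with 1 count. Because priming was random, levels can be compared between genes only per length of transcript, here as CPM per kb of all annotated exons. This length merges the exons of every annotated transcript of a gene. It can be longer than the transcript present, so the order of the genes depends in part on the annotation. The mean over the 15 mice was highest for *Mcph1*, at 17.9 CPM per kb (SD 2.48), followed by *Phc1* at 14.2 (SD 2.19) and *Cdk5rap2* at 13.4 (SD 1.24). *Mcph1* was above *Phc1* in 13 of 15 mice, whereas *Phc1* was above *Cdk5rap2* in only 8, less than their spread. A step followed, since *Cdk5rap2* was above *Aspm* in all 15 mice. *Aspm* (7.05 CPM per kb, SD 2.17) and *Cenpj* (6.87, SD 2.16) could not be ordered, with *Aspm* the higher in 7 mice. *Cep152* (5.32, SD 1.42) and *Cep135* (5.12, SD 0.833) could not be ordered either, with *Cep152* the higher in 9. *Cit* (4.33, SD 0.907) and *Stil* (3.65, SD 1.41) came next, *Cit* being above *Stil* in 10 mice. *Wdr62* was the lowest at 1.94 CPM per kb (SD 0.784) and lay below *Stil* in all 15.

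The genes also differed in how much they varied from mouse to mouse. The coefficient of variation of the level over 15 mice was 9.23% for *Cdk5rap2*, 13.9% for *Mcph1*, 15.4% for *Phc1* and 16.3% for *Cep135*. It was 30.7% for *Aspm*, 31.5% for *Cenpj*, 38.8% for *Stil* and 40.5% for *Wdr62*. Part of the spread in the low genes was counting error, since *Wdr62* had 1 count, and *Cenpj* and *Stil* 4 each, in mouse T3. *Aspm* had at least 23 counts in every mouse.

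**Figure D1:**
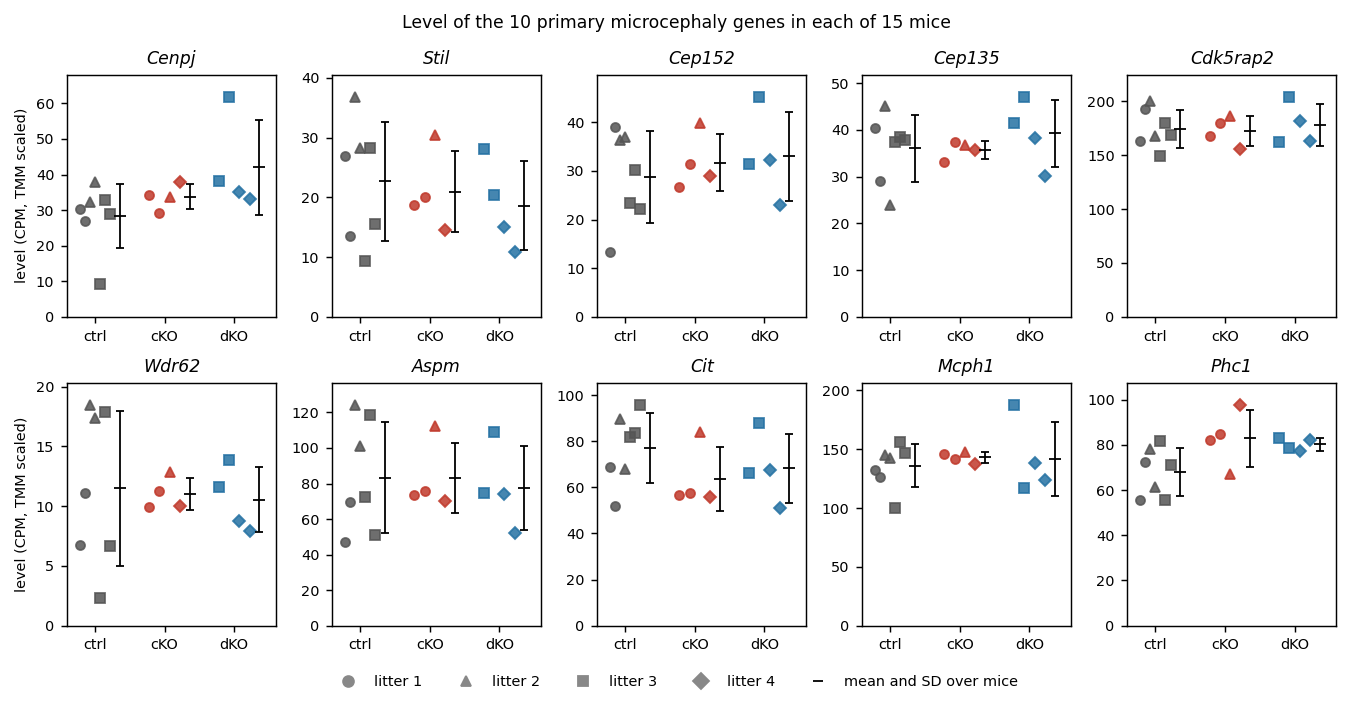
Level of each of the 10 genes, in CPM scaled by TMM on a linear axis from 0, in the 7 ctrl, 4 cKO and 4 dKO mice. Each point is a mouse, its shape is the litter, and the bar beside each group is the mean with the SD over mice. The 3 genotypes overlap in every panel, and for *Aspm* and *Stil* the litter 2 mice (triangles) lie high in both ctrl and cKO.

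The first question was whether deletion of 1 primary microcephaly gene was accompanied by a change in RNA of the others. Among the centriole genes, *Cenpj* was at 34.1, 29.3, 33.8 and 38.0 CPM in cKO mice 5, 7, S2 and F3. In dKO mice T2, T8, F1 and F7 it was at 38.1, 61.9, 35.0 and 33.2 CPM. In ctrl it ranged from 9.34 through a median of 30.2 to 38.0 CPM. T8 was thus above the other mice and T3, with 4 counts, below them, and the groups overlapped. The log fold change of *Cenpj*, on the log2 scale, was 0.46 (standard error 0.22, FDR of 1) in dKO versus ctrl and 0.16 (standard error 0.17, FDR of 1) in cKO versus ctrl. *Cenpj* in dKO versus ctrl was the only one of the 30 differences between genotypes with an unadjusted p below 0.05 by edgeR's likelihood ratio test (the quasi-likelihood F test gave 3), and an exact permutation test over the mice gave 0.0939 (two-sided, unadjusted, 330 regroupings). The log fold change was 0.21 without T8, 0.68 with batch as a covariate, 0.67 within batch 3, 1.00 with litter as a covariate and 1.01 within litter 3 (standard error 0.35), each with an FDR of 1. In litter 3 both dKO mice, T2 and T8, were above the 3 ctrl mice, of which T3 was the lowest.

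*Stil*, whose product forms part of the centriole's first scaffold, was at 18.7, 20, 30.5 and 14.6 CPM in cKO mice 5, 7, S2 and F3. In dKO mice T2, T8, F1 and F7 it was at 28.2, 20.3, 15.1 and 10.9 CPM, and in ctrl it ranged from 9.34 through a median of 26.9 to 36.9 CPM. The 2 dKO mice of litter 4 were the lowest of their group, and S2 was the highest cKO mouse. The log fold change was −0.48 (standard error 0.30) in dKO and −0.18 (standard error 0.27) in cKO versus ctrl. *Cep152* and *Cep135* were nearer to ctrl in the pooled comparisons. *Cep152* was at 31.7 ± 5.82 CPM in cKO, 33.0 ± 9.16 in dKO and 28.8 ± 9.46 in ctrl (mean ± SD, n = 4, 4 and 7). *Cep135* was at 35.8 ± 1.92, 39.2 ± 7.11 and 36.02 ± 7.15 CPM. Their log fold changes against ctrl lay between 0.01 and 0.12. Within litter 3 the log fold change of *Cep152* in dKO was 0.60 (standard error 0.37, FDR of 1), and that of *Cep135* was 0.25.

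Among the genes of the spindle pole, *Cdk5rap2*, which anchors microtubule nucleation at the centrosome, had the narrowest intervals. It was at 168, 180, 187 and 156 CPM in cKO mice 5, 7, S2 and F3, and at 162, 204, 182 and 163 CPM in dKO mice T2, T8, F1 and F7. In ctrl it ranged from 149 through a median of 169 to 200 CPM. The fold change was 0.965 (95% interval 0.827 to 1.126) in cKO and 1.01 (0.848 to 1.20) in dKO versus ctrl. A change in *Cdk5rap2* of more than about 1.2-fold in either direction therefore lay outside the interval in both pooled comparisons. With litter as a covariate its log fold change was −0.04 (standard error 0.12) in cKO and 0.15 (standard error 0.19) in dKO. Within litter 3 it was 0.16 (standard error 0.19) in dKO, which leaves room for a larger change there. *Mcph1* was known nearly as well in the pooled comparisons, with a fold change of 1.03 (0.885 to 1.21) in cKO and 1.01 (0.837 to 1.23) in dKO.

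*Aspm*, the gene most often mutated in the human disorder, was at 73.7, 75.8, 113 and 70.01 CPM in cKO mice 5, 7, S2 and F3. In dKO mice T2, T8, F1 and F7 it was at 74.6, 109, 74.3 and 52.0 CPM, and in ctrl it ranged from 47.0 through a median of 72.4 to 124 CPM. The genotype means were 83.3 ± 31.3 in ctrl, 83.0 ± 19.9 in cKO and 77.5 ± 23.6 in dKO (SD, n = 7, 4 and 4). One cKO mouse and 1 dKO mouse stood well above their groups, and the ctrl mice spread over the whole range. *Wdr62* was at 9.95, 11.3, 12.9 and 10 CPM in cKO and at 11.6, 13.9, 8.75 and 7.95 CPM in dKO, in the same order of mice. In ctrl it ranged from 2.33 (1 count) through a median of 11.1 to 18.4 CPM. Its fitted log fold changes against ctrl were −0.28 (standard error 0.24) in cKO and −0.42 (standard error 0.32) in dKO. The arithmetic means of *Wdr62*, 11.02 and 10.54 against 11.5 CPM, differed less than these folds, because the fit gives shallow mice such as T3 and 2 little weight.

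The remaining genes act elsewhere. *Cit* was at 56.9, 57.5, 84.2 and 55.7 CPM in cKO mice 5, 7, S2 and F3 and at 66.3, 87.8, 67.6 and 51.2 CPM in dKO mice T2, T8, F1 and F7. In ctrl it ranged from 51.9 through a median of 81.7 to 95.6 CPM. Apart from S2, the cKO mice were close together and near the low end of ctrl, and the log fold change was −0.25 (standard error 0.17, FDR of 1). *Phc1* was at 82.1, 85.02, 67.01 and 97.5 CPM in cKO and at 82.9, 78.5, 77.3 and 82.3 CPM in dKO, and in ctrl it ranged from 55.4 through a median of 71.1 to 81.7 CPM. *Phc1* gave the largest positive log fold change in cKO, 0.27 (standard error 0.14), and 0.24 (standard error 0.15) in dKO, both with an FDR of 1. With litter as a covariate these values were 0.13 (standard error 0.14) and 0.28 (standard error 0.24). The exact permutation test gave 0.0788 and 0.0455 for *Phc1* (two-sided, unadjusted, 2 of 30 such tests, the smallest p possible being 0.00303). It did not take litter into account.

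Over the 10 genes, the median log fold change was −0.02 in cKO versus ctrl, 0.02 in dKO versus ctrl and 0.04 in cKO versus dKO. Over all genes that passed edgeR's filter on low counts (filterByExpr) the medians were 0.04, 0.01 and 0.05. Of the 10 genes, 5 were positive and 5 negative in cKO, and 6 and 4 in dKO. No gene of the 10 reached an FDR below 0.05 in cKO versus ctrl, dKO versus ctrl or cKO versus dKO, against 0.160%, 0.0501% and 0.0520% of all listed genes. At an unadjusted p below 0.05 there were 0, 1 and 0 of the 10, against 10.5%, 5.73% and 4.11% of the genes that passed the filter. edgeR's quasi-likelihood F test also gave 0 of the 10 at an FDR below 0.05 in each comparison. DESeq2 gave 0 of 10 in cKO versus ctrl and in cKO versus dKO, and in dKO versus ctrl it gave an adjusted p for only 2 of the 10, neither below 0.05. In all 30 pairs of gene and comparison the CPM of the groups overlapped, whereas groups did not overlap for 1.27%, 0.695% and 3.80% of the genes that passed the filter. The cKO and dKO comparisons used the same ctrl mice and are given side by side without being compared as evidence. These are bulk samples, in which fewer cells of a type and less RNA per cell cannot be told apart.

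An FDR of 1 leaves room for changes of moderate size in most of the genes. For *Aspm* the 95% interval of the fold change was 0.725 to 1.27 in cKO and 0.659 to 1.21 in dKO versus ctrl. For *Stil* it was 0.613 to 1.26 and 0.476 to 1.08, and for *Wdr62* 0.593 to 1.15 and 0.487 to 1.15. For *Cit* it was 0.665 to 1.06 and 0.696 to 1.14. A level below 0.476 of ctrl thus lay outside the interval for each of these 4 genes in both pooled comparisons, whereas one of 0.725 lay inside it for all 4. Markers of intermediate progenitors, which summed to 93.4 to 175 CPM in cKO against 166 to 230 CPM in ctrl, moved beside these results, 2 of the 7, *Eomes* and *Neurog2*, being lower in cKO at an FDR below 0.05. Markers of interneurons summed to 848 to 1031 CPM in cKO and 465 to 967 in ctrl, with 1 of 10 higher at an FDR below 0.05 and 7 at an unadjusted p below 0.05. Apical progenitor markers summed to 557 to 767 CPM in cKO and 581 to 903 in ctrl. All 9 of them with counts had a negative log fold change in cKO. Of these, 5 had an unadjusted p below 0.05 and 0 an FDR below 0.05. Of the 20 G2/M genes used as mitotic markers, 0 reached an FDR or an unadjusted p below 0.05 in cKO versus ctrl. Their log fold change was negative for 17 and positive for 3, and their summed level was 743 to 1149 CPM in cKO and 684 to 1331 in ctrl. In dKO, intermediate progenitor markers summed to 111 to 200 CPM, and erythroid markers to 22.2 to 30.8 CPM against 8.47 to 21.8 in ctrl. There, 4 of the 7 intermediate progenitor genes were lower at an unadjusted p below 0.05. At the same threshold, 2 of the 20 G2/M genes and 1 of the 9 apical progenitor genes were lower. In these lists 0 genes reached an FDR below 0.05 in dKO. Of the 6 erythroid genes, 1 was higher in dKO at an FDR below 0.05 and 3 at an unadjusted p below 0.05. Reads assigned to no gene were 7.61 to 13.3% in dKO, highest in F7 and F1, against 6.06 to 9.52% in ctrl and 5.95 to 8.69% in cKO. The part of cell composition and of these reads in the members' values was not tested.

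**Figure D2:**
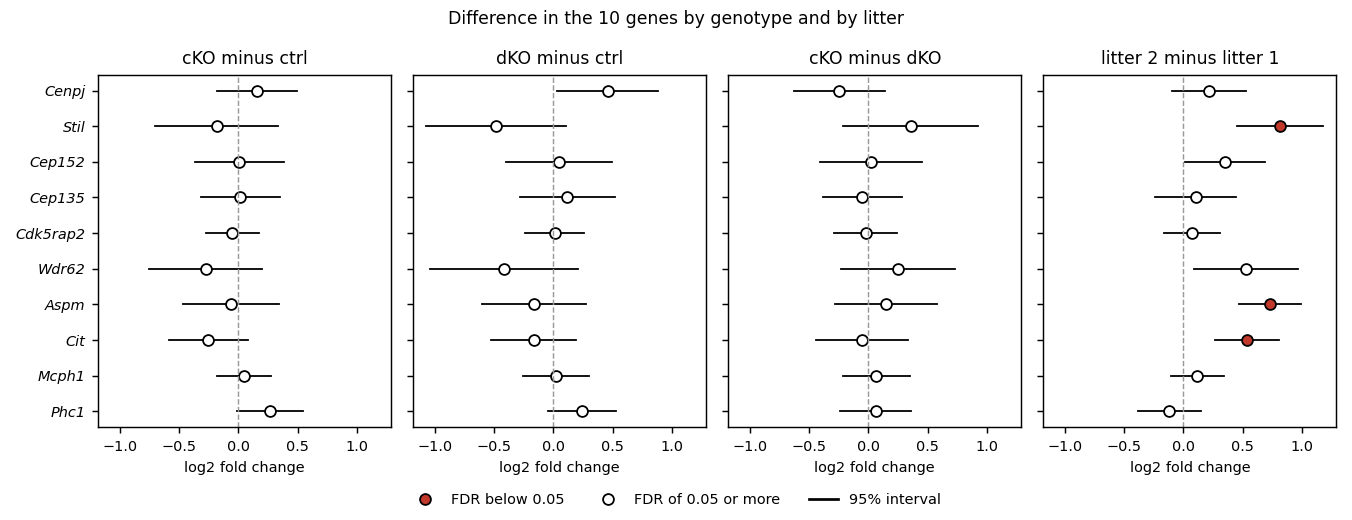
Log2 fold change of each gene (point) with its 95% interval (line) in cKO versus ctrl, dKO versus ctrl, cKO versus dKO, and litter 2 versus litter 1 with genotype in the model. Filled points have an FDR below 0.05. No gene is filled in the 3 genotype panels, and *Stil*, *Aspm* and *Cit* are filled in the litter panel, at 0.81, 0.73 and 0.54.

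For *Aspm* and *Stil* the litter 2 mice lay high in both ctrl and cKO, so litter was tested as a term of its own. This test was chosen after the values had been seen. With genotype in the model and all 15 mice, *Aspm* (FDR of 2.2e-05), *Stil* (FDR of 0.00040) and *Cit* (FDR of 0.0074) differed between litters, that is 3 of 10 genes against 2.17% of all listed genes. The other 7 had an FDR of 0.688 or more. Many listed genes had no counts. Run on only the 13352 genes that passed edgeR's filter on low counts, the same test called 1720, with 3 of the 10 members among them. Litters 1 and 2 each held both ctrl and cKO mice, and litter 2 was compared with litter 1 in a fit of their 7 mice alone. The 4 mice of litter 1 had *Aspm* at 73.7 and 75.8 CPM (cKO mice 5 and 7) and 47.0 and 69.3 CPM (ctrl mice 2 and 6). The 3 mice of litter 2 had it at 113 CPM (cKO mouse S2) and 124 and 101 CPM (ctrl mice S3 and S1). Every mouse of litter 2, of either genotype, was thus above every mouse of litter 1, and the fold change was 1.66 (95% interval 1.39 to 1.99, FDR of 1.3e-05).

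*Stil* was at 18.7, 20, 26.9 and 13.6 CPM in litter 1 (mice 5, 7, 2 and 6) and at 30.5, 36.9 and 28.2 CPM in litter 2 (mice S2, S3 and S1). The litters again did not overlap, and the fold change was 1.76 (1.36 to 2.26, FDR of 0.0024). *Cit* was at 56.9, 57.5, 68.9 and 51.9 CPM in litter 1 and at 84.2, 89.6 and 67.9 CPM in litter 2, in the same order of mice. Here 1 mouse of each litter overlapped, and the fold change was 1.45 (1.20 to 1.75, FDR of 0.011). *Wdr62* was at 9.95, 11.3, 6.72 and 11.1 CPM in litter 1 and at 12.9, 18.4 and 17.4 CPM in litter 2. Although its litters did not overlap, its fold change of 1.44 (1.061 to 1.956) had an FDR of 0.543. *Cep152* had a fold change of 1.27 (1.01 to 1.61) with an FDR of 0.816, and *Cenpj*, *Mcph1*, *Cep135*, *Cdk5rap2* and *Phc1* had fold changes of 1.16, 1.08, 1.07, 1.05 and 0.921, each with an FDR of 1. *Knl1* was also higher in litter 2, by 1.53-fold (1.27 to 1.83, FDR of 9.6e-04).

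Of the 10 genes, 3 were therefore called higher in litter 2, whereas 1.23% of all listed genes were called in either direction and 2.21% of those that passed the filter were called higher. At an unadjusted p below 0.05 it was 5 of 10 against 8.89%. The litters did not overlap, with litter 2 the higher, for *Aspm*, *Stil* and *Wdr62*, against 7.41% of the genes that passed the filter. Within batch 1, which leaves out S1, the fold changes were 1.71 for *Aspm*, 1.81 for *Stil* and 1.54 for *Cit*, each at an FDR below 0.05. *Aspm* stayed below 0.05 whichever of the 7 mice was left out. *Stil* did not without ctrl mouse 6 (FDR of 0.22), ctrl mouse S3 (0.052) or cKO mouse S2 (0.12), and *Cit* did not without mouse 5 (0.094), 6 (0.17), 7 (0.10), S3 (0.19) or S2 (0.85). Each litter is a single one, so these p-values measure the spread among littermates.

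In the other litters the levels were mixed. In litter 3, *Aspm* was at 119 CPM in ctrl mouse T4 and 109 CPM in dKO mouse T8, and at 72.4, 51.1 and 74.6 CPM in T3, T5 and T2. In litter 4 it was at 70.01, 74.3 and 52.0 CPM in F3, F1 and F7. *Cit* ranged from 66.3 to 95.6 CPM in litter 3 and from 51.2 to 67.6 CPM in litter 4. *Stil* was lowest in litter 4, at 10.9 to 15.1 CPM. When litter was a covariate of the genotype comparison, the log fold change of *Aspm* in cKO versus ctrl went from −0.06 to 0.12, that of *Stil* from −0.18 to 0.04 and that of *Cit* from −0.25 to 0.04. In dKO versus ctrl that of *Stil* went from −0.48 to 0.22, that of *Wdr62* from −0.42 to 0.22 and that of *Aspm* from −0.16 to 0.12, while that of *Cenpj* went from 0.46 to 1.00 and that of *Cep152* from 0.05 to 0.59. None of these had an FDR below 0.05, and dKO and ctrl mice shared only litter 3, whose 5 mice alone gave 1.01 for *Cenpj*, 0.60 for *Cep152*, 0.27 for *Stil*, 0.27 for *Wdr62* and 0.13 for *Aspm*.

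The 20 G2/M marker genes, among them *Cdk1*, *Ccnb1*, *Top2a* and *Mki67*, and none of them a member, moved with litter too. Of the 20, 14 were higher in litter 2 at an FDR below 0.05 and 19 at an unadjusted p below 0.05, and their summed level was 1118 to 1331 CPM in litter 2 against 684 to 863 CPM in litter 1. Other cell markers moved as well. Apical progenitor genes summed to 767 to 903 CPM in litter 2 and 557 to 816 in litter 1. Endothelial genes summed to 69.5 to 80.7 CPM in litter 2 and 92.4 to 100.6 in litter 1, and microglial genes to 7.60 to 14.2 and 17.7 to 28.2 CPM. Intermediate progenitor genes summed to 175 to 230 CPM in litter 2 and 93.4 to 219 in litter 1, and interneuron genes to 726 to 967 and 465 to 1031 CPM. Excitatory neuron genes summed to 6808 to 7514 CPM in litter 2 and 7366 to 8520 in litter 1. The part of these cells in the members' difference was not tested.

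Across all 15 mice the genes followed the G2/M markers to different degrees. Pearson's r between log2 CPM of the gene and the mean of the 20 markers was 0.85 for *Aspm*, 0.69 for *Cep152*, 0.67 for *Cit*, 0.59 for *Stil* and 0.57 for *Wdr62*. It was 0.51 for *Cdk5rap2*, 0.37 for *Mcph1*, 0.31 for *Cep135*, 0.24 for *Cenpj* and −0.13 for *Phc1*. These are descriptions over 15 mice that share libraries, depth and litters. *Aspm* ranged 2.63-fold from the lowest to the highest mouse, against 1.37-fold for *Cdk5rap2*. Among pairs of members, *Aspm* and *Cep152* were the most alike (r of 0.77), and *Phc1* and *Stil* the least (r of −0.48).

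**Figure D3:**
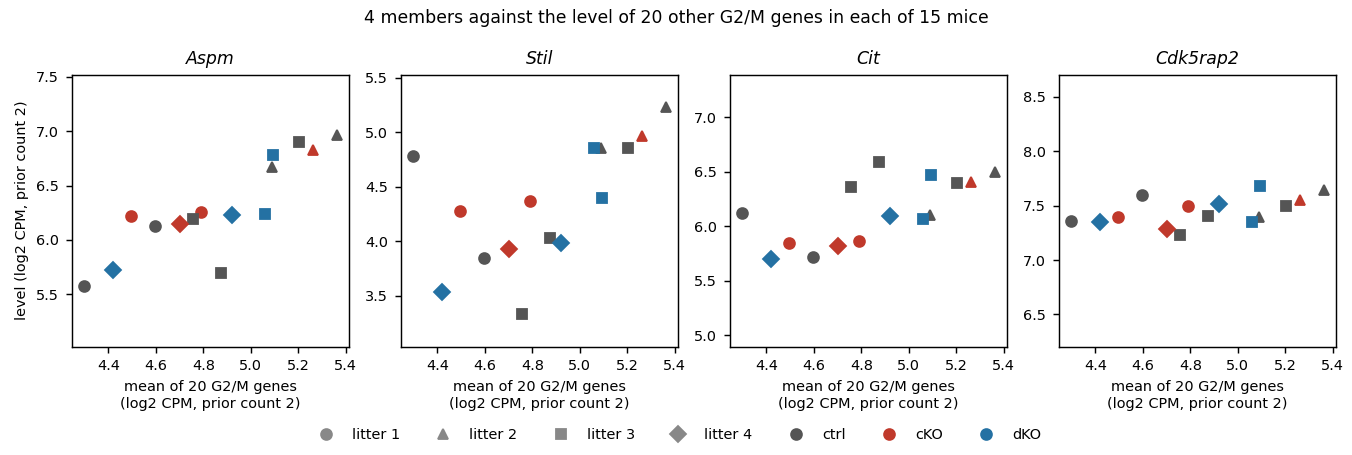
Level of *Aspm*, *Stil*, *Cit* and *Cdk5rap2* (y axis, log2 CPM with a prior count of 2) against the mean log2 CPM of 20 other G2/M genes (x axis) in each of the 15 mice. Color is the genotype and shape the litter, and all panels span the same number of log2 units. Litter 2 (triangles) lies at the upper right for *Aspm*, and *Cdk5rap2* stays within a narrow band.

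The start regions of the 3 genes that differed between litters are shown because these genes and the G2/M genes differed between the same litters. Promoters of many G2/M genes carry CCAAT boxes and the cell cycle genes homology region (CHR), so both were searched for. The E2F motif letters TTTCCCGC and TTTGGCGC were searched for as well. The sequences are from RefSeq on GRCm38.p6 and run 5′ to 3′ on the strand of the gene, from 120 bases before the annotated start to 30 after it. Capitals mark CCAAT (or ATTGG, its reverse) and the CHR letters TTTGAA or TTCGAA (on either strand). *Aspm* is at chr1:139454653-139454802, *Stil* at chr4:114999998-115000147 and *Cit* at chr5:115845536-115845685, all on the plus strand. In GENCODE M21 the genes themselves span chr1:139454772-139494091, chr4:115000159-115043196 and chr5:115845278-116008947, so that the *Cit* stretch lies inside its gene.
Aspm: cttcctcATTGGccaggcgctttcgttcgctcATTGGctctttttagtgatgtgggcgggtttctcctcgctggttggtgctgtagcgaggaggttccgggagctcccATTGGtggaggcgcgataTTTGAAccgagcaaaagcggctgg
Stil: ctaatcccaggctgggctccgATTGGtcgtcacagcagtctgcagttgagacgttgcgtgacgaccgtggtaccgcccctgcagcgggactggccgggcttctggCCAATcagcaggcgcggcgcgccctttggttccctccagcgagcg
Cit: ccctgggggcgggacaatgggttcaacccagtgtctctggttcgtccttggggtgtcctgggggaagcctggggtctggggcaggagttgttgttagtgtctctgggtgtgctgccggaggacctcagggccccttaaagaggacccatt
In the whole RefSeq window, 250 bases before to 50 after the start, *Aspm* held CCAAT 3 times, at −113, −88 and −12 on the reverse strand, and TTTGAA once, at 7. *Stil* held CCAAT 3 times, at −241, −99 and −15, and no CHR letters. *Cit* held neither in this window. Its RefSeq start is 378 bases inside the gene as GENCODE M21 gives it, against 1 base for *Aspm* and 41 for *Stil*. RefSeq windows were found for 9 of the 10 genes. CCAAT was in those of 5, *Aspm*, *Wdr62*, *Stil*, *Cep152* and *Cep135*, and TTTGAA in those of 2, *Aspm* and *Cdk5rap2*. TTCGAA was in that of 1, *Cep152*, at −151. The E2F letters were in that of 1, *Wdr62*. Among all 32851 mouse windows, 37.4% held CCAAT, 17.9% TTTGAA, 1.56% TTCGAA and 1.565% the E2F letters. A match of letters is not a bound site.

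The wider machinery around the members was read from 5 lists of 113 genes, of which 112 were found. In cKO versus ctrl 0 of the 112 reached an FDR below 0.05 by edgeR's likelihood ratio test or by DESeq2 (which gave 109 an adjusted p). By the likelihood ratio test 5 of the 112 had an unadjusted p below 0.05, against 10.5% of the genes that passed the filter. They were *Nin* (0.51, standard error 0.17) and *Kif2a* (0.32, standard error 0.12), higher, *Ninl* (−0.27, standard error 0.13) and *Ect2* (−0.44, standard error 0.22), lower, and *Cbx6*, which was near the limit of detection. *Nin* encodes ninein, a protein that anchors microtubules at the mother centriole. It was at 263 ± 52.6 CPM in ctrl and 377 ± 92.6 in cKO (SD, n = 7 and 4), and of the 3 edgeR and DESeq2 tests only the quasi-likelihood F test called it (FDR of 6.6e-04, against 0.325 by the likelihood ratio test). These tests did not take litter into account, and the mean of *Nin* was 365 CPM in litter 1 and 218 in litter 2. In dKO versus ctrl 0 of the 112 reached an FDR below 0.05 by either edgeR test, and DESeq2 gave an adjusted p to only 25, none below 0.05. Those with an unadjusted p below 0.05 by the likelihood ratio test included *Set* (0.34), higher, and *Cep85* (−0.42) and *Nde1* (−0.57), lower. *Nde1* is itself a gene of human microcephaly.

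Of the 18 other microcephaly genes found, 0 reached an FDR below 0.05 in cKO or dKO versus ctrl by the likelihood ratio test, and 0 had an unadjusted p below 0.05 there. Their median log fold change was −0.03 in cKO and −0.09 in dKO. *Kif14*, a kinesin that binds citron kinase in the midbody, had the smallest p among the lower ones in both, at −0.42 (standard error 0.23) and −0.43 (standard error 0.25). *Pdcd6ip* in cKO (0.13) and *Rrp7a* in dKO (0.50) had the smallest p among the higher ones. In cKO versus dKO, *Pdcd6ip* (0.27) was higher in cKO at an unadjusted p below 0.05. *Haus3*, near the limit of detection, was lower at that threshold. The other 110 of the 112 were not below it, and 4.11% of the genes that passed the filter were. Among 18 partners of cytokinesis, *Sept7* had the smallest p among the higher ones (0.17 in cKO and 0.18 in dKO), and *Cep55* among the lower ones in dKO (−0.60). Among 16 genes of Polycomb and chromosome condensation, *Cbx2* in cKO (−0.21) and *Rnf2* in dKO (−0.22) had the smallest p among the lower ones, and *Bora* did so among 29 spindle genes in cKO (−0.39).

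Between litters the same lists gave 23 of 112 at an FDR below 0.05, of which 22 were higher in litter 2. Of 18 genes of cytokinesis, 11 were higher, among them *Kif23* (0.78), *Anln* (0.70), *Prc1* (0.65), *Ect2* (0.61), *Cep55* (0.87) and *Aurkb* (0.89), which build the central spindle and the furrow in which citron kinase acts, and also *Kif20b*, *Kif4*, *Incenp*, *Cdca8* and *Racgap1* (0.54 to 0.86). Of 29 spindle genes 6 were higher, namely *Tpx2* (0.69), *Aurka* (0.90), *Kif11* (0.62), *Kif15* (0.65), *Bora* (0.69) and *Tacc3* (0.67). Of 18 other microcephaly genes 4 were higher, the kinetochore motor *Cenpe* (0.68), the condensin subunit *Ncaph* (0.75), the checkpoint kinase *Bub1* (0.77) and *Kif14* (0.62). Of 31 centrosome genes 1 was higher, *Plk4* (0.73), the kinase that starts centriole assembly together with STIL, and 1 lower, *Nin* (−0.69, with means of 218 CPM in litter 2 and 365 in litter 1). None of the 16 chromatin genes passed by the likelihood ratio test, with 4 at an unadjusted p below 0.05, *Ncapg2* (0.55) having the smallest. The share was 1.23% of all listed genes in either direction, and 2.21% of those that passed the filter were called higher in litter 2. Differences between the lists were not tested. The other tests of litter called 26 (quasi-likelihood F test) and, among genes that passed the filter, 29 of 109. The lists were written with results of these data known, and 2 of the cytokinesis genes and 5 of the spindle genes are also among the G2/M markers.

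**Figure D4:**
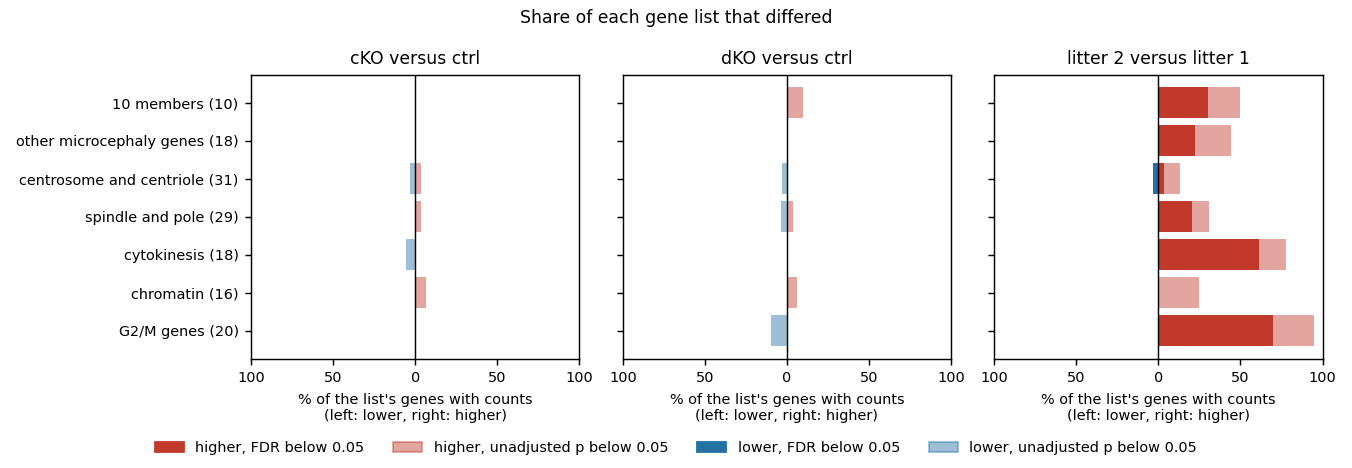
Share of the genes with counts in each list (number in brackets) that were higher (right, red) or lower (left, blue), as a percentage of the list. Dark bars are genes at an FDR below 0.05 and pale bars at an unadjusted p below 0.05, in cKO versus ctrl, dKO versus ctrl and litter 2 versus litter 1. The genotype panels hold no dark bar, whereas in the litter panel 3 of 10 members, 11 of 18 cytokinesis genes and 14 of 20 G2/M genes are dark.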

How the data were processed

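Gene counts of 16 UMI RNA-seq libraries from 15 mice were used. Per the labels and the study's methods, the authors trimmed reads with cutadapt 1.13, aligned them to mm10 with STAR 2.5.2a, removed PCR copies by UMI with UMI-tools 0.5.3 and counted with HTSeq 0.6.1p1 in intersection-nonempty mode. The deposited counts are whole numbers per gene, not normalized. The strand setting and annotation release are not given in the sources used here. Exons of *Mcph1* and *Wdr62* overlap genes on the opposite strand by 190 and 264 bases, and those genes had 14 and 10 counts in all.

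Of the 51912 listed genes, 51719 were matched to GENCODE M21 for symbols, exon lengths and coordinates. The 5 summary lines per file were left out. Libraries S2 and S2b were summed. For each genotype comparison only the mice of its 2 groups were fitted, using edgeR 4.0.16 under R 4.3.3 (TMM, estimateDisp, glmFit, likelihood ratio test), with Benjamini-Hochberg FDR over all listed genes. Standard errors come from the fitted model, and 95% intervals are 1.96 standard errors on each side. CPM used TMM over 15 mice. The litter tests used the same functions with genotype in the model. Fits were tested on simulated data. Exact permutation tests compared group means of log2 CPM, to which edgeR added a prior count of 2. The labels name separate mice, and p-values measure the spread among them.

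The alternatives were the quasi-likelihood F test, DESeq2 1.42.0, RLE size factors, filterByExpr, all groups in one fit, batch or litter as covariates, single S2 libraries, wild-type ctrl mice, single batches or litters and leaving out each mouse. The litter tests and the alternative with only mice of over 600000 counts were chosen after seeing the data. The members and lists were chosen with earlier results of these data known. Named genes are all members, *Knl1* and *Trp53*, list genes at an FDR below 0.05 or else with the smallest p in each direction, and the 3 genes of at least 20 CPM whose log2 CPM was most correlated with each member. *Eomes*, *Neurog2*, *Sox2*, *Tubb3* and the further list genes with an unadjusted p below 0.05 were named after their values were seen. A result for 1 list gene is not reported here. Python 3.11.15 and matplotlib 3.10.9 made the figures.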

Additional observations from a re-analysis of the deposited data

Results flagged for a closer look

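Within each genotype the lowest and the highest mouse were compared with the rest of the group by Dixon's test, for 30 groups of 4 or 7 mice, of which chance alone would mark about 1 in 20. There were 3 such cases. *Aspm* was at 112.6 CPM in cKO mouse S2, with 990 counts, against 70.01 to 75.8 CPM in the other cKO mice. *Cit* was at 84.18 CPM in the same mouse, with 740 counts, against 55.7 to 57.5 CPM. S2 is the only cKO mouse of litter 2, and its libraries S2 and S2b had 470 and 520 counts of *Aspm* and 356 and 384 of *Cit*. *Cenpj* was at 9.337 CPM in ctrl mouse T3, with 4 counts, against 26.9 to 38.0 CPM in the other ctrl mice. T3 had the lowest total count of the 15 mice.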

How the results depend on the processing

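No member reached an FDR below 0.05 between genotypes under any of the alternatives run, and the smallest FDR of a member was 0.415 in cKO versus ctrl, 0.722 in dKO versus ctrl and 1 in cKO versus dKO. In dKO versus ctrl, DESeq2 gave an adjusted p for 2 of the 10 only. The names of the mice are not shared between groups and pair none of them, so litter took the place of a replicate number and its values are given below. Most differences were near 0, and their sign turned under several settings, which is given here as the log2 fold change. In cKO versus ctrl it turned with DESeq2 (*Cep152* −0.016, *Cep135* −0.029), RLE size factors (−0.035, −0.025), filterByExpr (−0.036, −0.028, and *Mcph1* −0.00015), batch as a covariate (*Cep135* −0.078), litter as a covariate (*Aspm* 0.12, *Stil* 0.036, *Cep152* −0.035, *Cit* 0.039), library S2b alone (*Cep152* −0.010), wild-type ctrl mice (*Cep152* −0.019), batch 1 (*Aspm* 0.10, *Cep135* −0.043), litters 1 and 2 (*Aspm* 0.022, *Cep152* −0.024) and mice of over 600000 counts (*Cep152* −0.16). In dKO versus ctrl it turned for *Cdk5rap2* with DESeq2 (−0.011), RLE (−0.0040) and filterByExpr (−0.0063), with litter as a covariate (*Aspm* 0.12, *Wdr62* 0.22, *Stil* 0.22), wild-type ctrl mice (*Cep152* −0.011), batch 3 (*Cep135* −0.018), litter 3 (*Aspm* 0.13, *Wdr62* 0.27, *Stil* 0.27, the median of the members then being 0.26) and mice of over 600000 counts (*Mcph1* −0.16, *Cdk5rap2* −0.031, *Cep152* −0.18). In cKO versus dKO it turned for *Cep152* with DESeq2 (−0.046), RLE (−0.033), filterByExpr (−0.043) and all groups in one fit (−0.00080), with batch as a covariate (*Aspm* −0.10, *Stil* −0.16, *Cep152* −0.12), litter as a covariate (*Cenpj* 0.17, *Cep135* 0.092) and batch 3 (*Aspm* −0.099, *Mcph1* −0.0016, *Stil* −0.18, *Cep152* −0.13). The cause was not tested.

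Leaving out 1 mouse at a time turned the sign of the log2 fold change of some members, over these ranges. In cKO versus ctrl they were *Aspm* −0.25 to 0.065, *Cep152* −0.15 to 0.10, *Cep135* −0.081 to 0.13. In dKO versus ctrl they were *Aspm* −0.39 to 0.0064, *Mcph1* −0.11 to 0.090, *Cdk5rap2* −0.060 to 0.067, *Cep152* −0.15 to 0.22. In cKO versus dKO they were *Aspm* −0.056 to 0.36, *Cdk5rap2* −0.091 to 0.040, *Cep152* −0.16 to 0.20, *Cep135* −0.20 to 0.045, *Cit* −0.24 to 0.089, *Phc1* −0.029 to 0.13. In litter 2 versus litter 1 they were *Cep135* −0.073 to 0.25, *Phc1* −0.23 to 0.054. The number of members called between litters 2 and 1 was 1 to 3, being 1, *Aspm*, without mouse 6, S3 or S2, and 2 without 5 or 7, where *Cit* was lost. For any litter it was 2 to 3.

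The count of all genes at an FDR below 0.05 moved in cKO versus ctrl from 83 to 352 (quasi-likelihood F test), 138 (DESeq2 and filterByExpr), 49 (all groups in one fit), 16 (wild-type ctrl mice), 13 (batch 1), 12 (litters 1 and 2) and 52 (mice of over 600000 counts). In dKO versus ctrl it moved from 26 to 113 (quasi-likelihood F test), 8 (DESeq2), 14 (filterByExpr, and all groups in one fit), 17 (batch as a covariate, and wild-type ctrl mice), 4 (litter as a covariate) and 3 (litter 3). In cKO versus dKO it moved from 27 to 184 (quasi-likelihood F test), 7 (DESeq2), 14 (filterByExpr, and all groups in one fit), 3 (batch as a covariate), 1 (batch 3) and 62 (mice of over 600000 counts). With filterByExpr the litter tests called 1004 (litter 2 versus 1, from 636) and 1720 genes (any litter, from 1127), and 3 members in both. Leaving out 1 mouse, it was 17 to 373, 17 to 59 and 6 to 179 in the genotype comparisons, 238 to 662 for litter 2 versus 1 and 622 to 1304 for any litter, the lowest of both litter tests being without S2. Depth limited *Wdr62*, *Stil* and *Cenpj* most, with 1 to 4 counts in T3.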

Other observations

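For each member, the genes whose levels followed it most closely over the 15 mice were read from 7068 other genes of at least 20 CPM, as the 3 with the highest Pearson's r of log2 CPM. With so many genes and 15 mice that share litters and depth, high values of r are found for any gene, and they are given as descriptions. In mouse T3, *Wdr62* had 1 count and *Cenpj* and *Stil* 4 each. The part of this mouse in their values of r was not tested. Nearest to *Aspm* were *Golm1*, *Hdac1* and *Syne2* (r of 0.90 to 0.93). *Hdac1* encodes a histone deacetylase and *Syne2* a protein that links the nucleus to the cytoskeleton. Nearest to *Cit* were *Btg2*, *Neil3* and *Bub3* (r of 0.91 to 0.94), of which *Btg2* marks progenitors that are about to form neurons and *Bub3* encodes a spindle checkpoint protein. Nearest to *Stil* were *Dennd1b*, *Eif4ebp2* and *Fat1* (r of 0.86 to 0.87), and to *Wdr62* *Plcb4*, *Appl2* and *Lrig1* (r of 0.91 each). For *Cep152* they were *Arhgap5*, *Podxl* and *Spag5* (r of 0.88 to 0.90), *Spag5* encoding astrin, a protein of the mitotic spindle. For *Cenpj* they were *Trim26*, *Nars* and *Irs2* (r of 0.90 to 0.92), and for *Cep135* *Rbck1*, *Cops7b* and *Fam160b1* (r of 0.72 to 0.80). The steadier genes had other neighbours, with *Elmsan1*, *Sept9* and *Ruvbl2* (r of 0.85 to 0.91) for *Cdk5rap2*, *Prpf39*, *Tbc1d10b* and *Ndor1* (r of 0.83 to 0.84) for *Mcph1* and *Ppfia4*, *Dmtn* and *Ift122* (r of 0.80 to 0.83) for *Phc1*. The mean log2 CPM of the 10 members was followed by *Ncapg2*, *Lrrc1* and *Incenp* (r of 0.88 to 0.91). *Ncapg2* encodes a condensin subunit and *Incenp* a subunit of the chromosomal passenger complex, and both were on the lists of partners.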
